A study of Homo sapiens with 6 samples.

Results

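The genes described here are 9 of the 30651 in the count table: MDM2, MDM4, CDKN1A, SESN1, SESN2, GADD45A, GADD45B, FAS and TP53INP1. They were taken by symbol as well-known genes of the p53 pathway, each was found once, and each had enough reads to be tested among 15423 genes. RNA came from PC-3 cells, an established human line grown from a prostate cancer that had spread to bone, in 6 libraries. The Ctrl group (3 libraries, with columns headed NC) and the MTA1 group (3 libraries, with columns headed shMTA1, where sh is the usual prefix of a short hairpin RNA) share the cell line and its medium, and the labels name lentivirus and a screen for stable clones in the same words for both. The labels give neither the number of hairpins or clones nor separate cultures, so the p-values measure only how these libraries vary, which may be technical. The columns headed NC were matched to Ctrl by elimination.

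The p53 protein is a transcription factor that responds to DNA damage and other stress. It switches on genes that halt the cell cycle, repair DNA, limit growth or start cell death, and one of its targets, MDM2, marks p53 itself for destruction, which closes a feedback loop. MDM4, a relative of MDM2, blocks the activating part of p53. PC-3 cells are known as p53-null, that is, without working p53 protein, which was not measured here. Most genes called p53 targets also answer to other factors, among them the p53 relatives p63 and p73, ATF4 and other stress factors, FOXO proteins and NF-kB.

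Sequences upstream of some of these genes, searched for the p53 element, are shown first, since p53 acts by binding DNA near its targets. Binding of p53 was not measured. The p53 element consists of a pair of half-sites set side by side, 20 bases in all, and it reads as its own reverse complement, so that both strands are covered. It was searched for with at most 2 mismatches and no spacer in the 250 bases upstream of each start in a RefSeq table (GRCh38.p14) of 35116 windows, and 0.561% of all windows held it. The table had 14 windows for 7 of the 9 genes, and 3 windows of MDM2 and FAS held the element. The MDM2 windows among these overlap and hold the same site (chr12:68808923-68808942), so this site is counted more than once. MDM2 has an outer and an inner group of starts, and the inner one is known as its p53-driven promoter. The window at the outer start (chr12:68807922-68808171, plus strand) had no match, and the window at the inner start (chr12:68808767-68809001, plus strand, 235 bases, ending before annotated untranslated sequence) had one with 2 mismatches, in capitals. The element of FAS is given with 5 bases on each side (chr10:88991304-88991333, plus strand), also with 2 mismatches and in capitals. It lies at the third of 3 FAS starts.
MDM2 outer start: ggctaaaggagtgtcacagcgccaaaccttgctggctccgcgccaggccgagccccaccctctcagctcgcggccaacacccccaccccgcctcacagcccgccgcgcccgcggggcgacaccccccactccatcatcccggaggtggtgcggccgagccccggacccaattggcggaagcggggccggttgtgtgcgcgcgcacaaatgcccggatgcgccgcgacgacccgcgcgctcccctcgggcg
MDM2 inner start: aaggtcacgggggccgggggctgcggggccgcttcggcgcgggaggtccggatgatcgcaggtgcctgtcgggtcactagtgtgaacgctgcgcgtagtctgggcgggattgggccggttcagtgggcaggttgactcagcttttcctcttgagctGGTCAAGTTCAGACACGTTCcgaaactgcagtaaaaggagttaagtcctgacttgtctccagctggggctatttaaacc
FAS element: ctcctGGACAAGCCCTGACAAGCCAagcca
Only the best match of each window was kept. Among the windows of these genes without the element, that of the third SESN1 start had the fewest mismatches, 3. Its best match opens with an exact half-site: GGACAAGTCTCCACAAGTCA (chr6:109009018-109009037, minus strand). An exact half-site stood in 5.57% of all windows. The windows of MDM4, CDKN1A, SESN2 and GADD45B had at least 5 mismatches, which says only that these letters are not in those windows. The counts are per gene and do not show which start was used.

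MTA1, part of the NuRD chromatin complex, is the targeted gene and was lower in each MTA1 library. Its counts were 1185, 1331 and 1352 in Ctrl, in the order of the replicates as throughout, against 528, 572 and 519 in the MTA1 group (log2 fold change -1.21 ± 0.054 SE, edgeR adjusted p = 4.3e-13). Depth ran from 29909172 to 33849262 counts per library. The mean squared difference between replicates was 3.77 to 11.1 times the variance that counting gives. Between libraries of different groups it was 111.5 to 121.6 times that variance. The mitochondrial share of counts was 5.31% to 5.81% in Ctrl against 7.10% to 7.77% in the MTA1 libraries, and the part of this difference in the results was not tested. The 6 epithelial markers summed to 5282 to 5697 CPM in Ctrl and 4681 to 5005 CPM in the MTA1 group (CPM is a count scaled to a common library size, here with TMM factors). KRT7, KRT8 and KRT18 made up most of these sums. EPCAM stood at 15.7 to 27.1 CPM and KRT19 at 13.3 to 16.3 CPM. CD44, EPCAM and KRT19 rose, KRT7 and KRT8 fell, and KRT18 did neither. The luminal marker KLK3 had at most 1 count. Of leukocyte markers 6 were listed and summed to at most 2.38 CPM, with PTPRC at 0 to 3 counts. Fibroblast markers summed to 78.6 to 87.9 CPM in Ctrl and 113.9 to 115 CPM in the MTA1 group, of which THY1 rose and COL1A1 and PDGFRB fell, while DCN stood near 1 CPM. Endothelial markers summed to 11.3 to 13.5 CPM, nearly all of it PECAM1. The part of these markers in the results was not tested.

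The p53 relatives p63 and p73 were scarce. TP63 had 4 to 9 counts per library and was not tested. TP73 had 13, 32 and 20 counts in Ctrl and 5, 13 and 11 in the MTA1 group, and it fell (log2 fold change -1.10 ± 0.37 SE, edgeR adjusted p = 0.0157). In CPM every MTA1 library lay below every Ctrl library, while the raw counts met at 13. That call was lost without Ctrl replicate 2 (adjusted p = 0.141), without MTA1 replicate 1 (0.0817) and on both FPKM scales (0.0834 and 0.109), and the fold change without Ctrl replicate 2 was -0.73.

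Among the 9 genes, 6 rose, 1 fell and 2 did not pass in the MTA1 group. A gene is said to rise or fall where its adjusted p in edgeR's quasi-likelihood test, corrected over all tested genes, was under 0.05. Of all tested genes 58.1% passed, 29.5% as higher and 28.6% as lower, so a passing gene is common in this comparison. SESN2, FAS, GADD45A, MDM4, SESN1 and TP53INP1 rose, GADD45B fell, and MDM2 and CDKN1A did not pass. The 9 genes were chosen with earlier results of these data known, so comparing them with all tested genes is only descriptive. The median log2 fold change of the 9 genes was 0.47, against 0.002 over all tested genes. Over the 74 other pathway genes tested, described below, it was -0.09. In 6 of the 9 genes the libraries of the groups did not overlap in CPM, 5 with the MTA1 group higher and 1 with it lower, against 62.7% of all tested genes (32.1% higher and 30.6% lower). When a change of more than 1.2-fold was asked for, 5 of the 9 genes passed, against 30.1% of all tested genes. The plots of CPM by library and of the fold changes show these values.

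**Figure D1:**
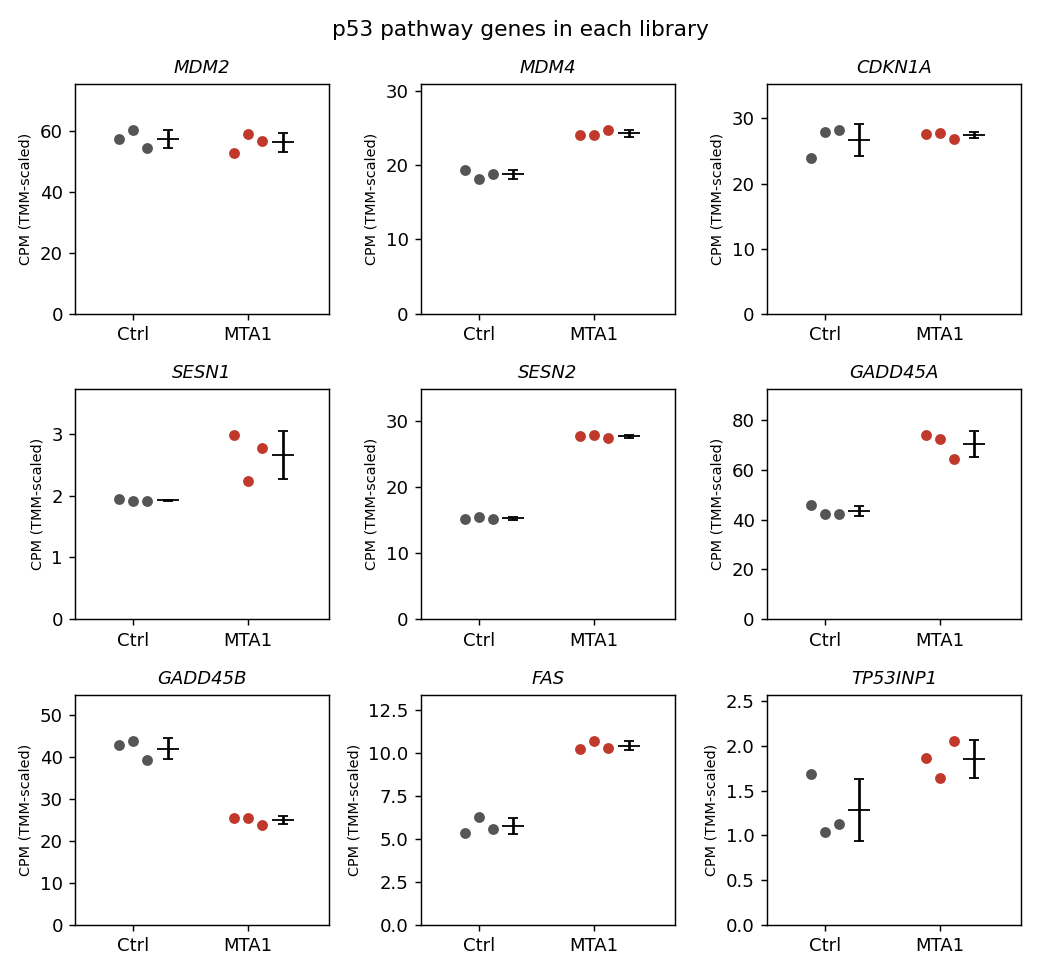
Level of each of the 9 genes in each library, in CPM on a linear axis from 0, for the 3 Ctrl (grey) and 3 MTA1 (red) libraries, with the mean and SD of each group as a bar beside the points. SESN2, FAS, GADD45A, MDM4 and SESN1 are higher in all 3 MTA1 libraries than in any Ctrl library, GADD45B is lower in all 3, and the groups overlap for MDM2, CDKN1A and TP53INP1.

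**Figure D2:**
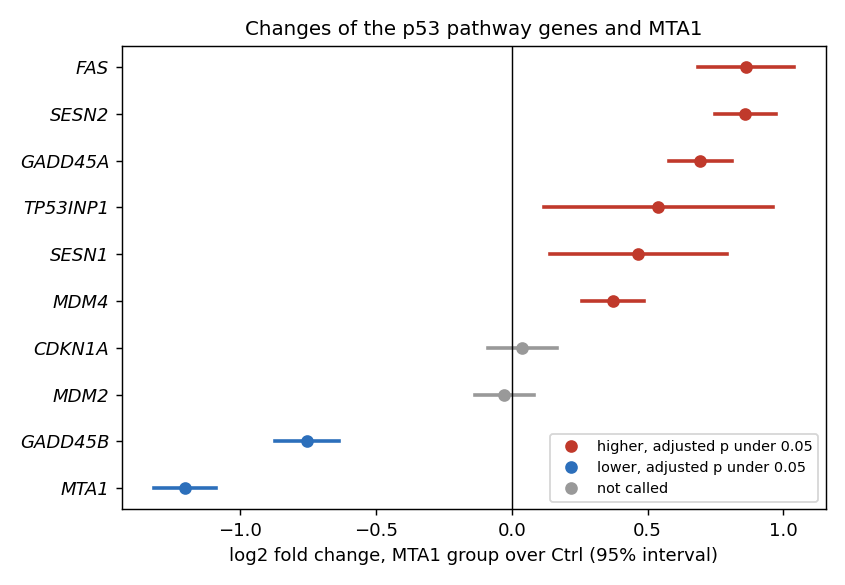
Log2 fold change of the MTA1 group over Ctrl (points) with its 95% interval (lines) from edgeR for the 9 genes and MTA1. The intervals of MDM2 and CDKN1A span 0, and those of SESN1 and TP53INP1 are the widest.

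MDM2 and MDM4, the inhibitors of p53, differed from each other. MDM2, a ubiquitin ligase, had 57.2, 60.4 and 54.3 CPM in Ctrl and 52.8, 59.0 and 56.7 CPM in the MTA1 group. The groups overlapped throughout, the log2 fold change was -0.03 ± 0.052 SE with a 95% interval from -0.14 to 0.08, and it did not pass (edgeR adjusted p = 0.669). The sign of this small value is not stable: it was 0.04 with scaling by library size only and was positive on both FPKM scales as well. MDM4 had 19.3, 18.2 and 18.8 CPM in Ctrl and 24.0, 24.0 and 24.8 CPM in the MTA1 group. All 3 MTA1 libraries stood above all Ctrl libraries, and MDM4 rose by 1.29-fold (log2 fold change 0.37 ± 0.054 SE, edgeR adjusted p = 7.3e-06).

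The ratio of MDM2 to MDM4 within a library does not depend on how libraries are scaled. On FPKM, which the authors scaled for gene length as well as depth, it was 3.91, 4.40 and 3.83 in Ctrl and 2.91, 3.25 and 3.04 in the MTA1 group. Every MTA1 library lay below every Ctrl library. On counts the log2 ratio was 1.61 ± 0.109 in Ctrl and 1.21 ± 0.0809 in the MTA1 group (SD, n = 3), a difference of -0.40 (exact permutation test, 2-sided, p = 0.1, the smallest that 3 against 3 libraries allow). USP7, a deubiquitinase that stabilises MDM2 and p53, stood at 82.8 ± 3.06 CPM in Ctrl and 80.2 ± 3.02 CPM in the MTA1 group (SD, n = 3) and did not pass (edgeR adjusted p = 0.394). CDKN2A, which encodes the MDM2 inhibitor ARF beside p16, fell slightly from 234 ± 5.29 to 213 ± 8.42 CPM (log2 fold change -0.14 ± 0.041 SE, edgeR adjusted p = 0.0080). That call ended with scaling by library size only (adjusted p = 0.178), on both FPKM scales (0.206 in each) and without MTA1 replicate 1 (0.0576).

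CDKN1A, which encodes the CDK inhibitor p21 and is the classical arrest gene downstream of p53, was expressed without p53 and did not pass. It had 23.9, 27.9 and 28.3 CPM in Ctrl and 27.6, 27.8 and 26.9 CPM in the MTA1 group. The lowest library was Ctrl replicate 1, and the MTA1 libraries lay inside the range of Ctrl in CPM. In FPKM the values were 6.86, 8.10 and 8.13 in Ctrl and 8.31, 8.36 and 8.19 in the MTA1 group, so that on this scale the MTA1 libraries all stood above Ctrl, and the gene did not pass there either (limma adjusted p = 0.205 and 0.206 with pseudocounts of 0.1 and 1). The log2 fold change was 0.04 ± 0.061 SE with a 95% interval from -0.09 to 0.16 (edgeR adjusted p = 0.611), and without Ctrl replicate 1 it was -0.04. Its relatives CDKN1B (p27) and CDKN1C (p57) did not move together. CDKN1B stood at 15.8 ± 0.983 CPM in Ctrl and 16.6 ± 0.850 CPM in the MTA1 group (SD, n = 3) and did not pass (edgeR adjusted p = 0.372). CDKN1C fell from 21.9 ± 2.02 to 12.4 ± 0.732 CPM (log2 fold change -0.82 ± 0.072 SE, edgeR adjusted p = 6.6e-09).

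The p21 protein binds cyclins, their kinases and the replication clamp PCNA. Of 9 tested genes for these partners, 6 fell and none rose, so that 66.7% passed, against 58.1% of all tested genes (28.6% lower), and the median over the list was -0.29 on the log2 scale. CCND1, the cyclin D1 gene, fell from 15.0 ± 0.380 to 6.93 ± 0.202 CPM (log2 fold change -1.11 ± 0.072 SE, edgeR adjusted p = 8.0e-11). PCNA, also a p53 target, fell from 189 ± 4.81 to 114 ± 4.54 CPM (-0.73 ± 0.042 SE, edgeR adjusted p = 1.3e-11) and CCNA2, the cyclin A2 gene, from 76.0 ± 4.29 to 56.1 ± 3.76 CPM (-0.44 ± 0.053 SE, edgeR adjusted p = 6.7e-07). The other 3, CDK2, CDK4 and CCNE2, did not pass.

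The sestrins restrain the growth kinase complex mTORC1 when amino acids are short and help against oxidative stress. SESN2, which senses leucine and is also induced by ATF4, had 15.2, 15.5 and 15.2 CPM in Ctrl and 27.8, 27.9 and 27.5 CPM in the MTA1 group. Both groups were tight and far apart, and SESN2 rose by 1.81-fold (log2 fold change 0.86 ± 0.054 SE, edgeR adjusted p = 4.6e-11). SESN1 is tied to p53 and FOXO factors. It had 60, 63 and 63 counts in Ctrl and 91, 71 and 86 in the MTA1 group, or 1.94, 1.92 and 1.91 CPM and 2.98, 2.24 and 2.77 CPM. The groups did not overlap, and SESN1 rose (log2 fold change 0.47 ± 0.156 SE, 95% interval 0.14 to 0.79, edgeR adjusted p = 0.0153). This call was lost without MTA1 replicate 1 (adjusted p = 0.075), with DESeq2 (0.053) and when more than 1.2-fold was asked for (0.103). The Ctrl libraries of SESN1 varied by 0.707% (coefficient of variation), less than the 12.7% that counting alone gives at this depth, and those of the MTA1 group by 14.4%, above what counting gives. SESN3, the remaining sestrin, had 0 to 3 counts per library and was not tested.

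SESN2 outweighed SESN1 in every library. The FPKM ratio of SESN2 to SESN1 was 11.4, 11.8 and 11.8 in Ctrl and 13.7, 18.7 and 14.8 in the MTA1 group, with no overlap. On counts the log2 ratio differed by 0.40 (exact permutation test, 2-sided, p = 0.1, the smallest possible), and 0.28 without MTA1 replicate 2. Sestrins bind GATOR2, the complex that relieves mTORC1 inhibition by GATOR1. Of 8 tested subunits of GATOR2 and GATOR1, 3 rose and none fell, or 37.5% passing, below the share of all tested genes. WDR59, of GATOR2, rose from 31.2 ± 1.66 to 40.0 ± 0.817 CPM (log2 fold change 0.36 ± 0.052 SE, edgeR adjusted p = 7.7e-06). WDR24 (0.19 ± 0.072 SE, edgeR adjusted p = 0.0281) and MIOS (0.22 ± 0.084 SE, edgeR adjusted p = 0.0287), also of GATOR2, rose by less, and both calls were lost with DESeq2 (0.0783 and 0.0907), without Ctrl replicate 3 (0.11 and 0.145) and without MTA1 replicate 1 (0.135 and 0.165). That of WDR24 was lost as well without Ctrl replicate 1 (0.0883) and MTA1 replicate 3 (0.0733).

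GADD45A and GADD45B, small stress proteins that bind the kinase MEKK4 (MAP3K4), PCNA and CDK1, went in opposite directions. GADD45A, a p53 target that other stress factors also induce, had 46.0, 42.1 and 42.4 CPM in Ctrl and 74.0, 72.6 and 64.5 CPM in the MTA1 group. The groups did not overlap, and GADD45A rose by 1.62-fold (log2 fold change 0.69 ± 0.055 SE, edgeR adjusted p = 1.6e-09). GADD45B, better known as a target of NF-kB and TGF-beta signals, had 43.0, 44.0 and 39.3 CPM in Ctrl and 25.4, 25.6 and 23.8 CPM in the MTA1 group. All MTA1 libraries lay below all Ctrl libraries, and GADD45B fell (log2 fold change -0.75 ± 0.056 SE, edgeR adjusted p = 5.6e-10). GADD45G, the remaining relative, had between 19 and 25 counts in the Ctrl libraries, between 23 and 36 in the MTA1 libraries, and did not pass (log2 fold change 0.45 ± 0.25 SE, edgeR adjusted p = 0.133), although it passed as higher on both FPKM scales (adjusted p = 0.0412 and 0.0406).

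The 2 GADD45 messages were nearly even in Ctrl and far apart in the MTA1 group. The FPKM ratio of GADD45A to GADD45B was 1.188, 1.065 and 1.198 in Ctrl and 3.24, 3.16 and 3.005 in the MTA1 group. On counts the log2 ratio was 0.05 ± 0.0951 and 1.50 ± 0.0542 (SD, n = 3), a difference of 1.45 or 2.73-fold (exact permutation test, 2-sided, p = 0.1, the smallest possible). Of 7 genes for partners of GADD45 proteins, 2 rose and 2 fell, or 57.1% passing, near the 58.1% of all tested genes. PCNA, which fell as given above, was not on this list. MAP2K3, which activates p38, rose (log2 fold change 0.36 ± 0.065 SE, edgeR adjusted p = 9.1e-05), whereas MAP2K6, which does the same, fell (-0.48 ± 0.059 SE, edgeR adjusted p = 6.8e-07). CDK1, the mitotic kinase, fell (-0.42 ± 0.047 SE), while CCNB1, the cyclin it works with, rose (0.15 ± 0.040 SE), with edgeR adjusted p-values of 2.7e-07 and 0.0031.

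**Figure D3:**
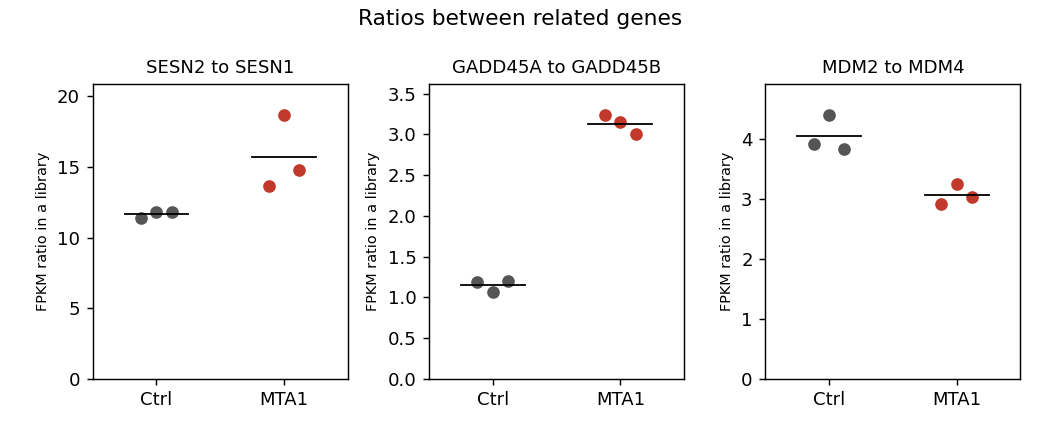
Ratio of the FPKM values of SESN2 to SESN1, GADD45A to GADD45B and MDM2 to MDM4 within each library, on linear axes from 0, with the group mean as a line. The ratio of GADD45A to GADD45B lies between 1.065 and 1.198 in Ctrl and between 3.005 and 3.24 in the MTA1 group, and the groups do not overlap for any of the 3 ratios.

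FAS and TP53INP1 act in cell death. FAS, the receptor of Fas ligand, had 165, 205 and 184 counts in Ctrl and 312, 340 and 320 in the MTA1 group, or 5.34, 6.25 and 5.59 CPM and 10.2, 10.7 and 10.3 CPM. The groups were well apart, and FAS rose by 1.82-fold (log2 fold change 0.86 ± 0.084 SE, edgeR adjusted p = 3.3e-08). Genes on the opposite strand overlap it. FAS-AS1 had 12 to 22 counts per library and ACTA2 382 to 457, and neither passed (edgeR adjusted p = 0.481 and 0.403). TP53INP1, which promotes autophagy and death and is a target of p53 and p73, had the fewest reads of the 9 genes, with 52, 34 and 37 counts in Ctrl and 57, 52 and 64 in the MTA1 group. Ctrl replicate 1 at 1.68 CPM stood above MTA1 replicate 2 at 1.64 CPM, so the groups overlapped. TP53INP1 rose (log2 fold change 0.54 ± 0.202 SE, 95% interval 0.12 to 0.96, edgeR adjusted p = 0.0279), but the call was lost with DESeq2 (adjusted p = 0.0738), when more than 1.2-fold was asked for (0.105) and without Ctrl replicate 2 (0.132), Ctrl replicate 3 (0.11), MTA1 replicate 1 (0.0528) or MTA1 replicate 3 (0.0949). Its relative TP53INP2 stood at 1.83 ± 0.375 CPM in Ctrl and 1.81 ± 0.0518 CPM in the MTA1 group (SD, n = 3) and did not pass (edgeR adjusted p = 0.946).

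Genes for the proteins that FAS engages were split. Of 6 tested, 1 rose and 3 fell, or 66.7% passing, against 58.1% of all tested genes. CASP8, the initiator caspase of this receptor, rose from 3.58 ± 0.116 to 5.88 ± 0.320 CPM (log2 fold change 0.72 ± 0.104 SE, edgeR adjusted p = 6.9e-06). FADD, the adaptor between FAS and CASP8 (-0.17 ± 0.046 SE), RIPK1 (-0.29 ± 0.068 SE) and FAF1 (-0.16 ± 0.044 SE) fell, with edgeR adjusted p-values of 0.0032, 0.0011 and 0.0033. The call of FADD was lost with scaling by library size only (adjusted p = 0.0598), that of FAF1 also there (0.0645) and on both FPKM scales (0.0934 and 0.0932), and that of RIPK1 on both FPKM scales (0.0647 and 0.0612). FASLG, the ligand, had at most 1 count in any library.

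Per length, the order of the 9 genes was the same in both groups but for a single exchange. By FPKM it ran in Ctrl from GADD45A (18.96 to 20.5) and GADD45B (15.8 to 17.9) through CDKN1A (6.86 to 8.13), MDM2 (5.63 to 6.33), SESN2 (3.77 to 3.90), MDM4 (1.44 to 1.51) and FAS (0.82 to 0.98) to SESN1 (0.32 to 0.33) and TP53INP1 (0.16 to 0.26). In the MTA1 group SESN2 (7.24 to 7.28) stood above MDM2 (5.73 to 6.41), and the other genes kept their places. No neighbours in either order overlapped in their libraries. GADD45A in the MTA1 group reached 30.5 to 34.7 FPKM.

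The profiles of single genes over the 6 libraries were compared by the Euclidean distance of log2 CPM centred on each gene's mean. Among the 9 genes SESN2 and FAS were the closest pair (0.149), and GADD45B and FAS the farthest (1.98). Neighbours were sought among tested genes with a gene symbol, leaving out those listed only by an identifier. Of these, the nearest to SESN2 were RMDN3, PTPRF and SYVN1 (0.0431, 0.0602 and 0.0602), and those nearest to FAS were PTK7, TXNDC15 and SLCO4A1 (0.0597, 0.0728 and 0.0778). Nearest to GADD45A were TFPI, SNHG12 and SRSF11 (0.0471, 0.0522 and 0.0908), and to GADD45B ZFP36L2, PPDPF and TDRD3 (0.0617, 0.0702 and 0.0792). MDM4 lay nearest to PDE3B, PLIN3 and HSPA4L (0.0321, 0.0361 and 0.0400). With 6 libraries in 2 groups, these distances mostly reflect a like difference between the groups.

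The rest of the p53 pathway was divided. Of 81 other genes on 4 lists, for the p53 family and its regulators and for targets by role, 74 were tested, 20 rose, 30 fell and 24 did not pass, with a median log2 fold change of -0.09. That is 67.6% of them, against 58.1% of all tested genes. Scaling by library size only gave 25 higher and 23 lower, and asking for more than 1.2-fold left 24 genes, 11 higher and 13 lower. Of the genes named below, ATM, CHEK2, RPL11, PLK2, SIVA1, BAX, MYC, KLF4, ATF4 and EGR1 did not pass that stricter test, nor did CDKN2A, WDR24, MIOS, MAP2K3, CCNB1, FADD, RIPK1 and FAF1 above. The plot of these genes by role shows both directions in every list.

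**Figure D4:**
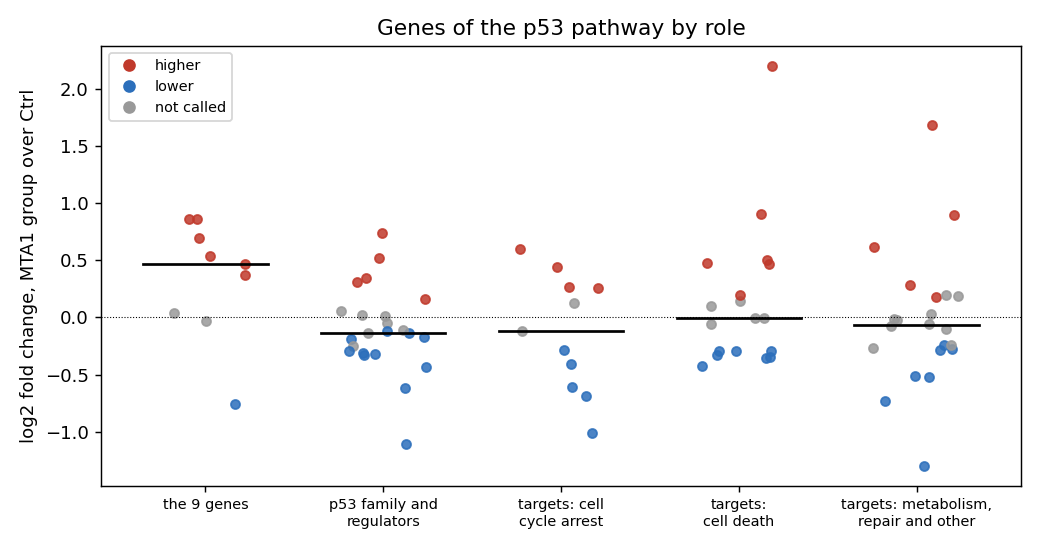
Log2 fold change of the MTA1 group over Ctrl for each tested gene of the p53 pathway, by role, with the list's median as a line. Points are genes that were higher, lower or not called by edgeR, and each of the 4 lists beside the 9 genes holds genes in both directions.

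Among genes that act on p53, 5 of 23 tested rose and 11 fell. In all 69.6% passed, against 58.1% of all tested genes (29.5% higher and 28.6% lower). The damage kinase ATR rose from 7.57 ± 0.697 to 10.8 ± 0.174 CPM (log2 fold change 0.52 ± 0.081 SE, edgeR adjusted p = 1.7e-05) and ATM from 14.7 ± 0.856 to 18.6 ± 0.870 CPM (0.34 ± 0.064 SE, edgeR adjusted p = 0.00013), whereas the kinase CHEK2 that ATM activates fell (-0.32 ± 0.054 SE, edgeR adjusted p = 3.3e-05). Of the ubiquitin ligases other than MDM2 that act on p53, RCHY1 (Pirh2) rose (0.74 ± 0.121 SE, edgeR adjusted p = 2.8e-05) and COP1 fell (-0.43 ± 0.060 SE, edgeR adjusted p = 3.9e-06). RPL5 and RPL11, ribosomal proteins that can bind and inhibit MDM2, fell (-0.62 ± 0.047 and -0.33 ± 0.040 SE, edgeR adjusted p = 8.4e-10 and 5.9e-07).

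Targets in cell cycle arrest were split 4 higher to 5 lower of 11 tested, or 81.8% passing, against 58.1% of all tested genes. The phosphatase gene PTP4A1 fell from 147 ± 1.69 to 73.0 ± 5.39 CPM (log2 fold change -1.01 ± 0.048 SE), SFN, which encodes 14-3-3 sigma, from 587 ± 37.7 to 386 ± 32.4 CPM (-0.60 ± 0.055 SE) and the antiproliferative gene BTG2 from 8.71 ± 0.333 to 5.41 ± 0.511 CPM (-0.69 ± 0.091 SE), with edgeR adjusted p-values of 8.7e-13, 1.1e-08 and 2.1e-06. The kinase genes PLK3 (0.60 ± 0.101 SE) and PLK2 (0.26 ± 0.058 SE) rose, with edgeR adjusted p-values of 3.9e-05 and 0.00075.

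Targets in cell death were split 6 higher to 7 lower of 18 tested, or 72.2% passing, against 58.1% of all tested genes. Of the TRAIL receptors on this list, TNFRSF10A (DR4) rose from 11.7 ± 0.743 to 22.0 ± 1.02 CPM (log2 fold change 0.91 ± 0.065 SE, edgeR adjusted p = 3.6e-10) and TNFRSF10B (DR5) from 17.6 ± 0.189 to 24.4 ± 0.268 CPM (0.48 ± 0.054 SE, edgeR adjusted p = 2.4e-07). TNFRSF10D rose as well (0.50 ± 0.110 SE, edgeR adjusted p = 0.00063), and TNFRSF10C had at most 1 count in any library. Both are also TRAIL receptors on this list and were added after their values were seen. IGFBP3, a carrier of insulin-like growth factors, had the largest rise on this list (2.20 ± 0.049 SE, edgeR adjusted p = 1.6e-17). TRIAP1, an inhibitor of apoptosis, PERP, a desmosome gene, and SIVA1, a pro-apoptotic gene, fell by 0.42, 0.35 and 0.30 on the log2 scale (edgeR adjusted p = 2.3e-07, 3.6e-07 and 1.1e-05). BAX, which opens the mitochondrial outer membrane and was chosen after its value was seen, fell as well (-0.33 ± 0.051 SE, edgeR adjusted p = 1.4e-05).

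Targets in metabolism, repair and other roles were split 5 higher to 7 lower of 22 tested. The share passing, 54.5%, was near the 58.1% of all tested genes. GDF15, a stress hormone, rose from 6.30 ± 0.413 to 20.2 ± 1.08 CPM (log2 fold change 1.68 ± 0.074 SE, edgeR adjusted p = 3.3e-13). SCO2, an assembly factor of cytochrome oxidase, fell from 62.7 ± 1.92 to 43.9 ± 0.582 CPM (-0.52 ± 0.046 SE) and RPS27L, a ribosomal protein relative, from 57.3 ± 1.65 to 40.1 ± 3.99 CPM (-0.51 ± 0.059 SE), with edgeR adjusted p-values of 7.7e-09 and 3.0e-07.

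Of 15 tested transcription factor genes whose proteins are known to act on the 9 genes, 6 rose and 4 fell. The share passing was 66.7%, against 58.1% of all tested genes. DDIT3 (CHOP), a stress factor, rose from 57.8 ± 2.77 to 135 ± 3.04 CPM (log2 fold change 1.23 ± 0.045 SE, edgeR adjusted p = 2.2e-14), and MYC (0.23 ± 0.038 SE) and KLF4 (0.33 ± 0.056 SE) rose with edgeR adjusted p-values of 2.6e-05 and 3.6e-05. The message of ATF4, an inducer of SESN2, fell slightly from 1487 ± 24.2 to 1308 ± 24.8 CPM (-0.19 ± 0.039 SE, edgeR adjusted p = 0.00045). E2F1, a cell cycle factor, fell (-0.77 ± 0.042 SE, edgeR adjusted p = 5.5e-12), as did EGR1 (-0.23 ± 0.047 SE, edgeR adjusted p = 0.00027). The NF-kB genes NFKB1 and RELA did not pass (edgeR adjusted p = 0.254 and 0.433); both were picked out with their values known. RNA levels do not show the activity of these proteins, and their part in the changes of the 9 genes was not tested.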

How the data were processed

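Total RNA of PC-3 cells was made into stranded libraries (SMARTer kit, Takara/Clontech) and read as paired 150 nt reads, per the labels. The authors deposited whole-number counts per gene without normalization for 30651 genes, and FPKM values for 29969 genes, a unit scaled by the authors to length and depth. Not given in the sources used here were the aligner, counter, strand setting, build and annotation. DESeq2 is named, with no role, in the submitters' processing notes.

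The main test on counts was edgeR 4.0.16 (R 4.3.3). Low genes were dropped by filterByExpr (15423 kept), libraries were scaled by TMM, and a quasi-likelihood model held the group alone. P-values are 2-sided and adjusted by Benjamini-Hochberg across the 15423 genes, and those under 0.05 were called. Standard errors and 95% intervals come from this fit. CPM are mean ± SD, n = 3 libraries. Within-library ratios were compared by exact permutation of libraries.

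The alternatives were other scalings and filters, DESeq2 1.42.0, limma 3.58.1 (voom, and log2(FPKM + 0.1) and log2(FPKM + 1)), a minimum fold of 1.2, the replicate number as a block, the 20 most abundant and mitochondrial genes left out, and each library left out. The scripts were tested on simulated data.

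The 9 genes, the lists and the tests were chosen with earlier results of these data known. Named are the 9 genes, MTA1, p53 relatives and regulators, the relatives of the 9 genes, and for each of the 9 the 3 nearest tested genes with a gene symbol. From each other list up to 3 genes per direction with the smallest p are named. Not all of these are reported here. Genes chosen after their values were seen are marked so.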

Additional observations from a re-analysis of the deposited data

How the results depend on the processing

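Of the 9 genes, SESN2, FAS, GADD45A, GADD45B and MDM4 kept their direction and their call under every alternative run, and 5 to 7 of the 9 passed without a single library. The counts of all genes and of pathway genes that passed moved by more than 1.5 times under the minimum fold of 1.2, to 4650 and 24. The sign of MDM2 turned with scaling by library size only (0.0401), log2(FPKM + 0.1) (0.0392) and log2(FPKM + 1) (0.0342), and without Ctrl replicate 2 or MTA1 replicate 1 (range without single libraries -0.0700 to 0.0163). That of CDKN1A turned without Ctrl replicate 1 (-0.041 to 0.0774). Among other genes that did not pass, TP53INP2 turned with scaling by library size only (0.0512), limma-voom (0.0053), log2(FPKM + 0.1) (0.0635) and log2(FPKM + 1) (0.019), and without single libraries (-0.18 to 0.12). USP7 turned under library-size scaling (0.0217) and in both FPKM analyses (0.0205 and 0.0185), TP53BP2 without single libraries (-0.0221 to 0.0593) and PPP1R13B likewise (-0.0868 to 0.12). For these sign changes the cause was not tested, and none of these values passed. Scaling by library size only moved the median of all genes to 0.07, and log2(FPKM + 0.1) to 0.06. The replicate numbers did not pair the libraries: the correlations of same-numbered deviations were 0.0666, -0.0207 and 0.0191, and not every library correlated best with its own number. With the replicate block 9139 genes passed, 7 of the 9 genes and 50 pathway genes among them. For the 3 ratios the block gave differences of 0.40, 1.45 and -0.40 with an exact sign-flip p of 0.25, the smallest that 3 pairs allow. Without single libraries the ratios differed by 0.28 to 0.49 for SESN2 to SESN1, 1.39 to 1.48 for GADD45A to GADD45B and -0.44 to -0.34 for MDM2 to MDM4. Depth limits TP53INP1, SESN1, TP73 and GADD45G, with under 100 counts in each library.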
